A study of Mus musculus with 4 samples.

Results

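Thbd, Procr, Tfpi, Plat, Plau, Vwf and F2r are the genes by which endothelial cells keep blood fluid, dissolve clots, bind platelets and sense thrombin. They were chosen by name from the function of their proteins, with earlier results of these data known, and they make up 7 of the 27998 genes counted. All 7 had at least 1 transcript in coronary cells at every stage, whereas Plau had none in endocardial cells at E15, P2 and in the adult.

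Thrombin, formed at the end of the coagulation cascade, cuts fibrinogen into fibrin and activates platelets. Endothelial cells bind thrombin with thrombomodulin (Thbd), which turns it into an activator of protein C, held ready by the endothelial protein C receptor (Procr), while tissue factor pathway inhibitor (Tfpi) blocks the cascade at its start. Fibrin is dissolved by plasmin, which tissue-type (Plat) and urokinase-type (Plau) plasminogen activator release from plasminogen; von Willebrand factor (Vwf) tethers platelets, and F2r (PAR1) is the receptor that thrombin cleaves.

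RNA was measured in single cells of C57Bl6J mouse hearts at embryonic day 12 (E12), embryonic day 15 (E15), postnatal day 2 (P2) and in the adult at 8 weeks. Each stage is 1 library of CD31+/CD45- sorted cells, made from 37, 48, 21 and 6 pooled animals in that order, with no genetic or drug treatment at any stage. Hearts of E12 and E15 were digested with Collagenase/Dispase, those of P2 and adult mice first with Collagenase II, and all cells were frozen and thawed before the libraries were made, with removal of dead cells at E12 and E15 and renewed sorting of live cells at P2 and in the adult. Stage and library therefore cannot be told apart at any step, and the digestion enzymes and the handling after thawing also changed between E15 and P2. Since cells of 1 library are no replicates, no test between groups was possible and no p-value is given.

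The files count unique molecular identifiers (UMIs), each standing for 1 captured transcript. After filtering, 5257, 5380, 5510 and 3994 cells were kept from E12 to the adult, with a median of 1209, 973, 4420.5 and 1472.5 UMIs, so P2 cells were the deepest. Levels are given as counts-per-million (CPM), a gene's part of all UMIs of a group of cells, with exact 95% Poisson intervals, and ratios of CPM have exact 95% binomial intervals. Both cover counting error only, and variation between animals is in neither. Libraries shared 25 to 60 cell barcodes pairwise, where random draws give 33.0 to 48.4.

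Cells were classed by their own marker transcripts. Endocardial cells had more UMIs of Npr3 and Tmem108 than of Fabp4, Cldn5 and Aplnr, and numbered 1552, 1872, 1053 and 65 from E12 to the adult. Coronary cells had at least 2 UMIs of the latter 3 genes and more of them than of the endocardial pair, and numbered 102, 1092, 4262 and 3851. Artery cells (at least 3 UMIs of Cxcl12, Glul, Alpl and Nebl) numbered 287, 58, 647 and 1748, large artery cells (at least 2 of Fbln5, Eln, Gkn3 and Clu) 933, 474, 1785 and 680, and valve cells (at least 2 of Cldn11, Enpp2 and Aqp8) 16, 56, 394 and 17. These classes may share cells.

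The class names held to a different degree at each stage. A UMI of at least 1 of 7 pan-endothelial genes (Pecam1, Cdh5 and others) was found in 77% to 100% of endocardial and 93% to 99.9% of coronary cells over the stages, but in 27.5% (E12) and 50% (E15) of artery cells and 29.9% and 48.3% of large artery cells. Summed transcripts of 7 mural and fibroblast genes stood at 2187 and 3986 CPM in these artery cells and at 1827 and 4257 CPM in the large artery cells, against 50.2 and 150 CPM in coronary cells. The E12 and E15 artery and large artery classes are therefore called by their rule and not taken as arterial endothelium. At P2, 631 of the 1785 large artery cells also passed as endocardial, 1024 as coronary and 284 as valve cells, and 5 lymphatic genes summed to 1924 CPM in them against 963 CPM in coronary cells. Of the E12 endocardial and coronary cells 63.4% and 58.8% lay at the limit of their class, against 16.8% and 1.85% at P2.

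On GRCm38, with the GENCODE annotation, Thbd lies on chr2:148404466-148408188 as a single exon on the minus strand. Procr (chr2:155751117-155755471, plus strand) and Tfpi (chr2:84432855-84476775, minus strand) are on the same chromosome. Plat lies on chr8:22757727-22782844, Plau on chr14:20836660-20843385 and Vwf, with 52 exons, on chr6:125546774-125686679, each on the plus strand, and F2r on chr13:95601803-95618487 on the minus strand. No other annotated gene overlaps any of them on either strand.

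RefSeq promoter sequence was at hand for Tfpi, Procr and F2r. They are shown because only these 3 of the 7 members had an entry. All 3 were lower in coronary than in endocardial cells from E15 on, with intervals below 1, and so was Vwf, which had no entry. At E12, of the 3 shown, this held for F2r only, since the intervals of Tfpi (0.411 to 1.10) and Procr (0.520 to 2.36) included 1. Bases upstream of the RefSeq start site are printed 5′ to 3′ in gene direction, with capitals for matches on either strand. The letters searched were CACCC for the core bound by KLF factors and GGGCGG for that of Sp factors. For the core of ETS factors they were AGGAAG. The AP-1 complex was represented by its element TGACTCA. Factors of the GATA family were represented by AGATAA, read like the others in both directions. No match overlapped another in these stretches, and these are letter matches, not binding sites. The last 16 printed bases of Tfpi and 21 of F2r lie inside the gene as GENCODE annotates it.
Tfpi, chr2:84476760-84477009, minus strand: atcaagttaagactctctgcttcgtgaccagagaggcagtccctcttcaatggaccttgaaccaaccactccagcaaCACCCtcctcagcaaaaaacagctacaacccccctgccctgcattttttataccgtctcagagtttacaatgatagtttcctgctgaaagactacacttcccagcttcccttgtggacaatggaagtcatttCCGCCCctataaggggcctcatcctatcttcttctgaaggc
F2r, chr13:95618467-95618716, minus strand: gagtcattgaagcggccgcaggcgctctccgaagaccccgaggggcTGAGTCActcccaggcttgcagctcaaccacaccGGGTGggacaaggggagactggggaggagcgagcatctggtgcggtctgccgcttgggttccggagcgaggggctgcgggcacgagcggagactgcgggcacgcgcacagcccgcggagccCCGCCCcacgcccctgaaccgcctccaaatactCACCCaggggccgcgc
Procr, chr2:155750967-155751116, plus strand: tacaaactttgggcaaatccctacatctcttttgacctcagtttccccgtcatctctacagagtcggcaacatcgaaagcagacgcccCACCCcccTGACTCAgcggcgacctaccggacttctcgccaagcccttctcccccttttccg

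The Tfpi stretch held the KLF core 173 bases and the Sp core 41 bases before the start site. Tfpi has a second RefSeq start, whose 250 bases (chr2:84474175-84474424) lie wholly inside the annotated gene and are not printed. They held the KLF core at 202, the Sp core at 159, the ETS core at both 92 and 41 and the GATA letters at 54 bases before that start. F2r held the KLF core at both 170 and 16 bases, the Sp core at 49 bases and the AP-1 letters at 204 bases before it. The KLF match at 16 bases lies within the annotated transcript. The F2r stretch was richer in G and C (70.8%) than that of Tfpi (48.4%) or Procr (56%). The shorter Procr stretch held the KLF core 162 bases and the AP-1 letters 154 bases before the start site. Of 32851 RefSeq promoters, 52.0% held the KLF core, 32.7% the Sp core, 29.5% the ETS core, 4.46% the AP-1 letters and 9.99% the GATA letters in the same 250 bases, and over the 150 bases used for Procr the shares were 35.2%, 16.7%, 18.1%, 2.52% and 6.54%. The AP-1 match of F2r and Procr was thus the least common of those in the printed stretches, and the KLF core was present in all 3 of them and in many promoters.

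Thbd had its lowest level at E12 and its highest in the adult, in coronary and endocardial cells alike. In coronary cells it measured 10.0 CPM (1.22 to 36.3, 2 UMIs) at E12, then 29.7 (21.1 to 40.8) at E15 and 121 (117 to 126) at P2, then 303 (290 to 317) in the adult. In endocardial cells it measured 16.5 (11.4 to 23.1), 28.3 (21.3 to 36.8), 161 (150 to 173) and 356 (268 to 465) CPM. The 2 classes followed the same order of stages, and P2 exceeded E15 by 4.08-fold (2.97 to 5.78) in coronary and 5.70-fold (4.34 to 7.64) in endocardial cells. From P2 to the adult Thbd was a further 2.50-fold (2.35 to 2.65) and 2.21-fold (1.64 to 2.91) higher. The E12 values lay below the 52.1 CPM of barcodes with at most 100 UMIs in the same library, which hold mostly free RNA. E12 cells without a pan-endothelial UMI held 4.97 CPM (2.78 to 8.19). The part of free RNA in the E12 values was not tested. The 30.2-fold (8.34 to 249) step from E12 to adult coronary cells rests on 2 UMIs.

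Depth differed between the stages, and the share of coronary cells with a Thbd UMI was 1.96%, 3.30%, 32.9% and 33.2%. With every cell thinned to 500 UMIs it was 0.98%, 1.66%, 5.73% and 13.7%, in the same order as the CPM. In mural or fibroblast cells without pan-endothelial UMIs the unthinned share was 0.71% of 567 cells at E12, 1.06% of 378 at E15 and 11.1% of 27 in the adult, at median depths of 1388, 1324 and 2676 UMIs against 1924, 1070.5 and 1460 in coronary cells. The 9 adult macrophage cells held 4 Thbd UMIs, and 28 and 33 such cells at E12 and E15 held none. Immediate-early transcripts, which dissociation can raise, moved in the same direction and summed to 407, 745, 4725 and 6054 CPM in coronary cells. Without the cells that had over 1% of such transcripts, Thbd was 120 CPM at P2 and 298 in adult hearts.

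Procr followed different courses in the 2 classes. In coronary cells it measured 45.2 CPM (20.7 to 85.8, 9 UMIs) at E12, then 27.4 (19.1 to 38.1) at E15 and 34.8 (32.3 to 37.4) at P2, then 11.3 (8.83 to 14.2) in the adult, where it was lowest. In endocardial cells it measured 38.3 (30.4 to 47.8), 45.3 (36.3 to 55.7), 62.6 (55.8 to 69.9) and 79.1 (40.9 to 138, 12 UMIs) CPM, and here the adult was highest. From P2 to the adult coronary cells held 0.324 times (0.251 to 0.414) as much, while the endocardial ratio of 1.26 had an interval from 0.647 to 2.24. In coronary cells outside the artery and large artery classes Procr was 9.75 CPM at P2 and 9.34 CPM in adult hearts, so no such fall was seen in them. Lymphatic genes in the coronary class went from 963 to 105 CPM over the same step, and P2 cells with 2 or more UMIs of lymphatic genes held 76.7 CPM of Procr, and the part of such cells in the fall was not tested. Barcodes with at most 100 UMIs at E12 held 32.9 CPM, within the interval of both E12 classes.

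Tfpi was highest at P2 in both classes. Coronary cells held 95.5 CPM (57.5 to 149) at E12, 117 (98.7 to 137) at E15 and 167 (161 to 172) at P2, then 49.2 (43.9 to 55.0) in the adult. Endocardial cells held 138 (122 to 155), 226 (206 to 248), 330 (314 to 346) and 237 (166 to 329) CPM. The adult coronary level was 0.296 times (0.262 to 0.332) that of P2, whereas the endocardial ratio of 0.72 had an interval (0.502 to 1.00) that just included 1. The low E12 barcodes held 91.8 CPM of Tfpi, close to the coronary and below the endocardial value of that stage. In coronary cells Tfpi was thus lower and Thbd higher in the adult than at P2, although both proteins restrain coagulation.

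Plat, the main activator of plasminogen inside vessels, was more abundant in coronary than in endocardial cells at E15 and P2. They had 20.1 CPM (5.48 to 51.5, 4 UMIs) at E12, 90.0 (74.3 to 108) at E15 and 227 (221 to 234) at P2, then 155 (146 to 165) in the adult. Endocardial cells had 39.3 (31.2 to 48.8), 24.2 (17.8 to 32.1), 92.7 (84.4 to 102) and 119 (70.4 to 188) CPM. Coronary cells were 4.48-fold (1.70 to 16.7) higher at E15 than at E12, and endocardial cells showed their step later, by 3.83-fold (2.84 to 5.29) from E15 to P2. At E12 both classes lay at or below the 43.8 CPM of the low barcodes.

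Plau was rare at all stages. Coronary cells held 2, 9, 43 and 4 UMIs from E12 to the adult, or 10.0, 7.05, 2.09 and 0.63 CPM, and endocardial cells held 1 UMI at E12 and none thereafter. The level at P2 was 0.297 times (0.143 to 0.693) that at E15, and no coronary cell had more than 2 Plau UMIs. At E12, 45 cells with 2 or more UMIs of lymphatic genes held 5 Plau UMIs (61.9 CPM).

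Vwf diverged most in the adult. In coronary cells it measured 60.3 CPM (31.2 to 105, 12 UMIs) at E12, 40.7 (30.4 to 53.4) at E15 and 47.3 (44.4 to 50.4) at P2, then 88.1 (81.0 to 95.7) in the adult. In endocardial cells it measured 63.1 (52.7 to 74.9), 80.2 (68.1 to 93.8), 136 (126 to 146) and 791 (656 to 946) CPM, so the adult stood above every other stage. The low E12 barcodes held 58.9 CPM (42.6 to 79.3), close to both E12 classes. E12 cells without a pan-endothelial UMI held 9.60 CPM (6.43 to 13.8). The part of free RNA in the E12 values was not tested. The endocardial step from P2 was 5.83-fold (4.76 to 7.09), resting on 120 UMIs of 65 cells, of which 15 held 3 or more. In these adult endocardial cells 4 vein genes summed to 1181 CPM, against 315 at P2 and 158 in adult coronary cells, and mural or fibroblast genes to 1761 CPM. Their part in the Vwf level was not tested. With cells holding markers of other types left out, adult endocardial Vwf was 1315 CPM, and with the single cell richest in Vwf left out it was 724 CPM. The 22 adult cells with 2 or more UMIs of platelet genes held no Vwf UMI.

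F2r was higher in endocardial cells at all 4 stages. Coronary cells held 176 CPM (123 to 245) at E12, 109 (91.5 to 128) at E15 and 266 (259 to 273) at P2, then 130 (122 to 140) in the adult. Endocardial cells held 258 (237 to 281), 311 (286 to 336), 747 (723 to 771) and 778 (644 to 932) CPM. Coronary cells were 2.45-fold and endocardial cells 2.40-fold higher at P2 than at E15, but the coronary level then fell to 0.49 times (0.455 to 0.527) that of P2 while the endocardial level was 1.04 times (0.86 to 1.25) that of P2. Of the low E12 barcodes 178 CPM was F2r, close to the coronary and below the endocardial value.

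**Figure D1:**
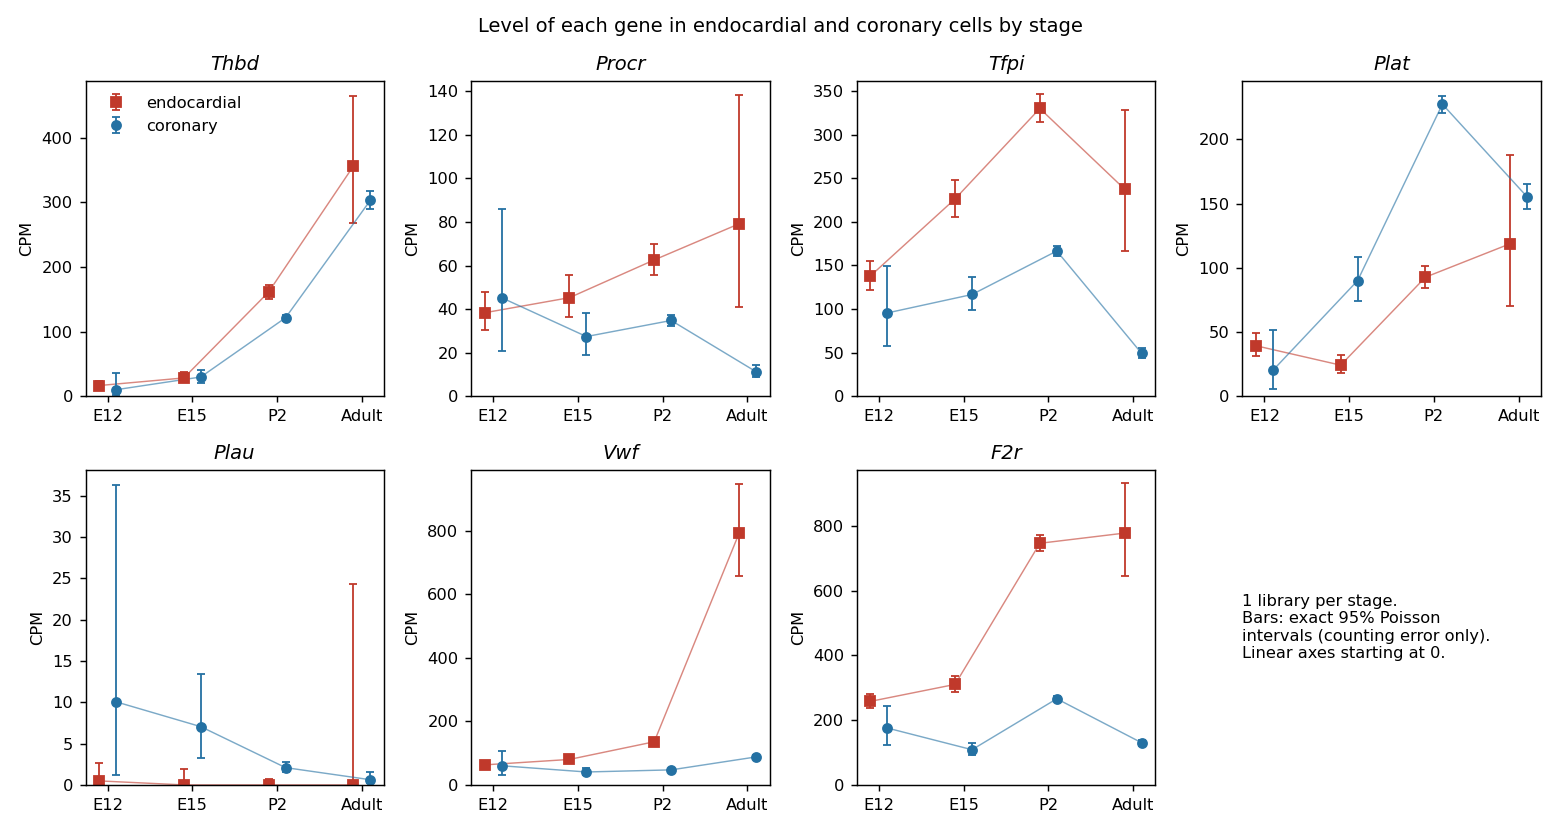
Level of each gene (CPM, linear axes from 0) at E12, E15 and P2 and in adult hearts, with squares for endocardial and circles for coronary cells, 1 library per stage, and bars for exact 95% Poisson intervals. Thbd climbs in both classes to 303 and 356 CPM, and Plat is higher in coronary cells at E15 and P2. F2r is apart between the classes from E15 on. The gaps of Vwf and F2r are widest in the adult, with endocardial values of 791 and 778 CPM.

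Against endocardial cells of the same library, coronary cells held more Plat and Plau and less F2r, Vwf, Tfpi and Procr at 1 or more stages, and the gaps of the latter 4 were widest in the adult. A member was counted as higher or lower when its CPM ratio passed 2-fold and the 2 groups held at least 20 of its UMIs together. This number of UMIs was reached by 6 members at E12, E15 and in the adult and by all 7 at P2. At E12 none passed 2-fold, where 5.74% of all tested genes were 2-fold higher and 17.9% lower. At E15 Plat was higher and F2r lower, against 6.33% and 13.6% of genes. At P2 Plat and Plau were higher and Vwf and F2r lower, with 11.3% and 10.8% of genes past these limits. In the adult no member was higher and 4 (Procr, Tfpi, Vwf and F2r) were lower, against 12% and 15% of genes.

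The ratio of coronary to endocardial CPM was 3.72 (2.63 to 5.35) for Plat at E15, 2.45 (2.23 to 2.71) at P2, with 1.31 (0.823 to 2.21) for adult cells. The adult value thus did not differ from 1 beyond counting error. For F2r it was 0.681 (0.47 to 0.96), 0.35 (0.289 to 0.422), 0.357 (0.342 to 0.372) and 0.168 (0.138 to 0.205) from E12 on. For Vwf it was 0.956 at E12 and then 0.507 (0.363 to 0.699), 0.349 (0.316 to 0.385) and 0.111 (0.0912 to 0.137). Written the other way, adult endocardial cells held 8.99-fold (7.32 to 11) more Vwf and 5.97-fold more F2r than coronary cells. Tfpi stood at 0.693, 0.515 (0.425 to 0.622), 0.505 (0.476 to 0.536) and 0.207 (0.147 to 0.301), just inside the 2-fold limit at E15 and P2. Procr fell from 1.18 at E12 over 0.605 (0.397 to 0.905) and 0.556 (0.486 to 0.637) to 0.143 (0.0768 to 0.289). Thbd never passed 2-fold between the classes, with 0.609, 1.05, 0.753 (0.695 to 0.817) and 0.851 (0.65 to 1.14). Plau had 43 UMIs in P2 coronary cells and none in endocardial cells, which is a 3.48-fold higher level against a floor of 3 counts over the endocardial cells, with an exact lower limit of 2.71-fold.

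**Figure D2:**
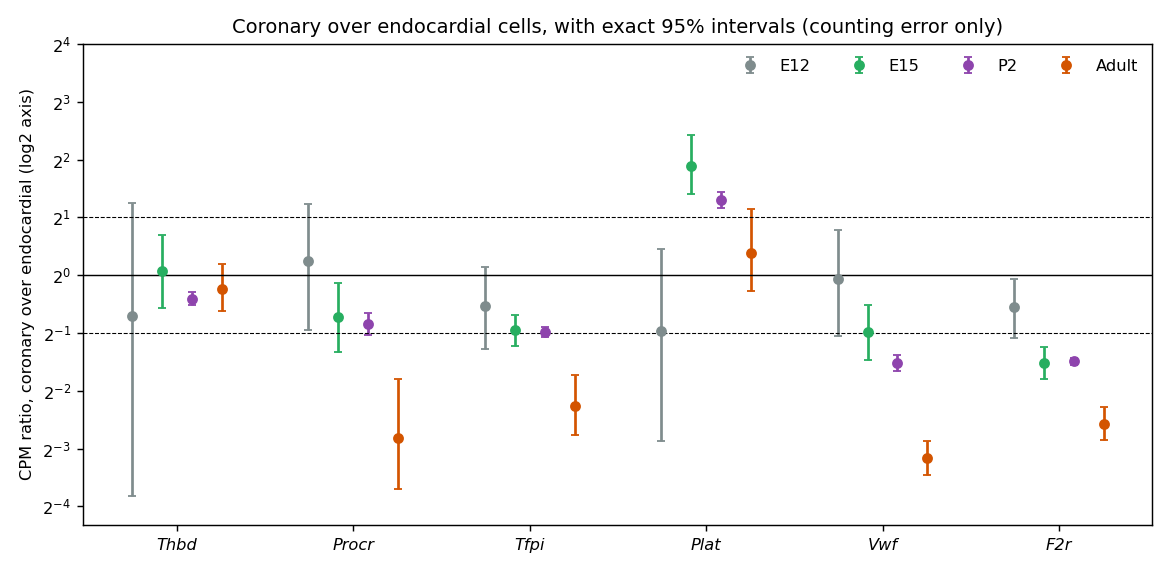
CPM ratio of coronary over endocardial cells (log2 axis) for 6 genes at the 4 stages, with exact 95% intervals, a solid line at equal levels and dashed lines at 2-fold. Plat lies above the upper dashed line at E15 and P2, and Procr, Tfpi, Vwf and F2r lie lowest in the adult.

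Between consecutive stages the members did not move together in coronary cells. From E12 to E15 Thbd and Plat were past 2-fold higher and none lower, against 11.8% and 6.07% of genes, although the Thbd interval (0.765 to 25.3) included 1. From E15 to P2 Thbd, Plat and F2r were higher and Plau lower, against 18.4% and 5.2% of genes. From P2 to the adult Thbd alone was higher and Procr, Tfpi, Plau and F2r were lower, with 10.8% and 14% of genes past the limits. From E12 to the adult Thbd (30.2-fold) and Plat (7.72-fold, 3.01 to 28.4) were higher and Procr (0.25, 0.124 to 0.568) was lower, against 24.3% and 14% of genes. The E12 levels of Thbd and Plat lay below the interval of the low E12 barcodes and that of Procr within it. Vwf stayed within 2-fold at each of these steps in the whole coronary class, the largest being 1.86-fold (1.67 to 2.07) from P2 to the adult. In coronary cells outside the artery and large artery classes it was 10.1 CPM (134 UMIs) at P2 and 94.8 CPM (264 UMIs) in the adult. The large artery rule left out 91.5% of P2 but 52.8% of adult coronary cells with 3 or more Vwf UMIs. Coronary cells had a median of 4419.5 UMIs at P2 and 1460 in the adult, and the part of depth was not tested.

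In endocardial cells no member was past 2-fold lower at any step. From E12 to E15 none passed in either direction, where 4.13% of genes were higher and 5.28% lower. From E15 to P2 Thbd, Plat and F2r were higher, the same 3 as in coronary cells, against 13.8% higher and 5.11% lower of all genes. From P2 to the adult Thbd and Vwf were higher, against 11.4% and 10.5% of genes. From E12 to the adult 5 of 6 tested members were higher, against 20.4% of genes, with 14.7% lower. These were Thbd (21.6-fold, 13.8 to 34.2), Vwf (12.5-fold, 9.71 to 16.2), F2r (3.02-fold, 2.45 to 3.69), Plat (3.02-fold, 1.71 to 5.08) and Procr (2.07-fold, 1.02 to 3.81). Of these 5, only F2r had an E12 level above the interval of the low E12 barcodes. The E12 levels of Vwf, Plat and Procr lay within that interval and that of Thbd below it. In E12 cells without a pan-endothelial UMI Thbd, Procr, Vwf and Plat were 4.97, 9.60, 9.60 and 34.1 CPM. The E12 endocardial cells held 16.5, 38.3, 63.1 and 39.3 CPM in the same order. The part of free RNA in these levels was not tested. Tfpi reached 1.72-fold (1.18 to 2.44).

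Artery and large artery cells were each compared with coronary cells outside both classes. In P2 and adult artery cells, which nearly all passed as coronary too, Plat was 301 and 196 CPM against 234 and 108 CPM in the other coronary cells, a ratio of 1.29 (1.20 to 1.38) and 1.81 (1.57 to 2.08). Tfpi was lower at 0.737 (0.661 to 0.821) and 0.733 (0.577 to 0.931), and F2r at 0.725 (0.663 to 0.791) and 0.599 (0.517 to 0.694). Thbd differed little, with 125 and 323 CPM and ratios of 1.22 and 1.17. Vwf changed its order, with 38.8 against 10.1 CPM at P2 (3.86-fold, 3.01 to 4.96) and 32.0 against 94.8 CPM in the adult (0.338, 0.267 to 0.425). At P2, 270 of the 647 artery cells were also large artery cells. With artery cells that were also endocardial, large artery or valve cells left out, the P2 ratio of Vwf was -0.16 on the log2 scale. In this setting coronary cells of both artery classes counted among the other coronary cells, so the value does not show the removal of overlap alone. Nearly all artery cells are coronary cells too, and the cause of this change was not tested.

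Counted over the stages, artery cells had Vwf higher and Plau (0.255, from 2 UMIs against 32) lower at P2, against 5.15% and 5.4% of genes, and Vwf lower with none higher in the adult, against 2.92% and 2.97%. At E12 Tfpi was lower (0.147, 0.0478 to 0.387) and none higher, against 11.7% and 18.6% of genes. At E15 Thbd and F2r were lower on 1 and 4 UMIs and none higher, against 14% and 11.9%. The E12 and E15 values belong to cells that largely lacked pan-endothelial transcripts, and at E15 Thbd and F2r stood at 0.0551 and 0.0672 on the log2 scale, above the other coronary cells, once a pan-endothelial UMI was required.

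Large artery cells held more Procr and Vwf. Procr was 74.1, 98.6 and 27 CPM in them at E15, P2 and in the adult against 15.8, 9.75 and 9.34 CPM in the other coronary cells, a ratio of 4.69 (2.68 to 8.52), 10.1 (8.40 to 12.2) and 2.89 (1.72 to 4.94). Vwf was 105, 154 and 255 CPM against 25.8, 10.1 and 94.8 CPM, a ratio of 4.08 (2.61 to 6.50), 15.3 (12.8 to 18.4) and 2.69 (2.30 to 3.16). Both genes thus had their widest gap at P2. Thbd was 1.73-fold (1.61 to 1.86) higher at P2 and equal in the adult (0.996, 0.881 to 1.12). With large artery cells of more than 1 class left out, the P2 log2 ratios were 3.50 for Procr and 3.63 for Vwf. In that setting coronary cells of both artery classes counted among the other coronary cells. With cells holding lymphatic, mural, macrophage or platelet markers left out the ratios were 3.36 and 4.28. Plat was 2.36-fold (2.02 to 2.76) higher in adult large artery cells, 428 of the 680 being artery cells too. It was -0.09 on the log2 scale in the setting that counted coronary cells of both artery classes among the other coronary cells.

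Past 2-fold in large artery cells were 2 members lower (Procr and Tfpi) and none higher at E12, against 8.67% and 21.3% of genes. At E15 Procr and Vwf were higher and Tfpi lower, against 13.5% and 10.1%. At P2 Procr and Vwf were higher and none lower, against 14% and 6.31%, and in the adult Procr, Vwf and Plat were higher and none lower, against 8.69% and 5.43%.

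Valve cells, set against the other endocardial cells, held more Thbd, Procr and Plat at P2. Thbd was 298 against 144 CPM (2.07-fold, 1.85 to 2.32), Procr 140 against 59.5 CPM (2.35-fold, 1.98 to 2.79) and Plat 191 against 85.3 CPM (2.23-fold, 1.93 to 2.58). Tfpi (0.703), Vwf (0.589) and F2r (0.689) were lower within 2-fold. These 3 higher and 0 lower members stood against 4.47% and 2.45% of genes. Of the 394 P2 valve cells 284 were also large artery and 205 coronary cells, lymphatic genes summed to 1699 CPM in them, and with cells holding markers of other types left out the Thbd log2 ratio was 0.54.

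The other valve values rest on few UMIs. At E15 Thbd (5.47-fold, 2.57 to 10.6), Procr (3.31-fold, 1.59 to 6.22) and Plat (2.25-fold, 0.588 to 6.16) were higher and Tfpi lower (0.295, 0.0952 to 0.693), against 10.3% and 8.95% of genes. At E12 the 16 valve cells held 2 Thbd and 4 Procr UMIs, past 2-fold higher, with none lower, against 17.6% and 2.53%. In the 17 adult valve cells Plat was past 2-fold higher on 12 UMIs and Tfpi and Vwf lower, Vwf with 121 against 828 CPM (0.146, 0.0526 to 0.328), against 7.34% and 14.8% of genes. These adult values of Plat and Tfpi turned direction, Plat to -0.33 on the log2 scale without marker UMIs of the other class and Tfpi to 0.0536 with classes cut after thinning. Thbd, higher in valve cells at P2, was 222 against 372 CPM in the adult (0.597, 0.281 to 1.16).

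**Figure D3:**
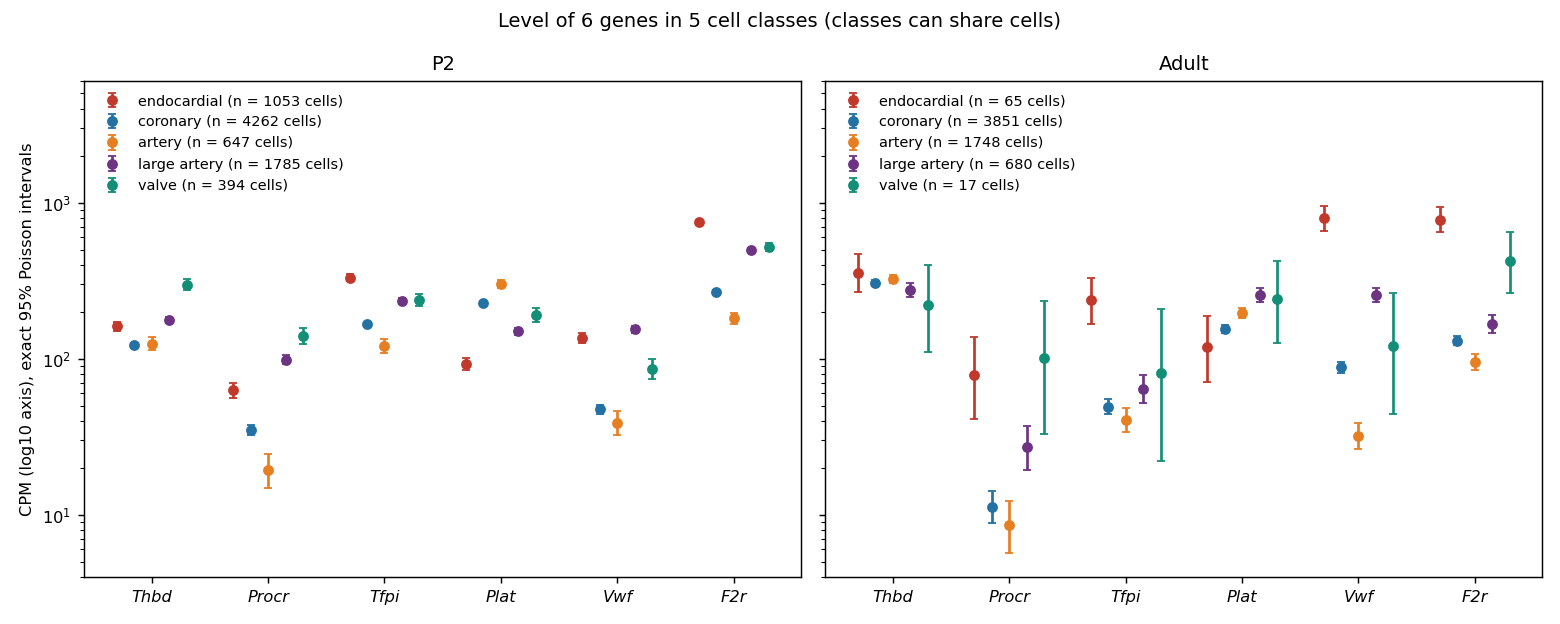
Level of 6 genes (CPM, log10 axis) in the 5 cell classes at P2 and in the adult, with exact 95% Poisson intervals and the number of cells in the legend. At P2 Procr and Vwf are higher in large artery cells (98.6 and 154 CPM) than in coronary cells (34.8 and 47.3 CPM), and in the adult Vwf and F2r are highest in endocardial cells.

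Vwf was concentrated in few coronary cells. At P2, 118 of 4262 coronary cells held 3 or more Vwf UMIs and together 58.9% of all Vwf UMIs, and 3824 cells held none. In the adult, 53 of 3851 cells held 56.9%, and 3596 held none. The richest cell had 22 and 21 Vwf UMIs, and the top 5% of cells held 77% and 89% of the total. By contrast, the top 5% held 38.8% of the Thbd UMIs at P2 and 31.7% in adult hearts.

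The Vwf-rich cells held more of several other genes at both stages. At P2 91.5% of them passed as large artery cells, Eln (elastin) stood at 9139 CPM in them against 286 CPM in coronary cells without a Vwf UMI, and Procr at 247 against 21.3 CPM. Of the vein genes, Nr2f2 (214 against 63.9 CPM), Vcam1 (187 against 36.9 CPM) and Ackr1 (35.7 against 0.0544 CPM) were higher in them too. Prss23, also on the vein list, differed little at P2, with 100 against 92.3 CPM. Their Plat was 107 against 236 CPM. In the adult 52.8% passed as large artery cells, and the vein genes, taken from the marker list, were far apart, with Vcam1 at 766 against 51.4 CPM, Prss23 at 303 against 29.4 CPM and Nr2f2 at 151 against 23.8 CPM. Eln was 641 against 53.9 CPM and Procr 35.6 against 9.19 CPM, the latter on 4 UMIs. Of the other large artery markers Gkn3 (98.0 against 9.53 CPM) and Clu (615 against 187 CPM) were also higher. Fbln5 was not, with 205 against 236 CPM. Tfpi was 214 against 45.3 CPM in the same adult cells, while at P2 it was 160 against 165 CPM. Npr3, an endocardial marker, also stood at 383 against 4.08 CPM in the adult Vwf-rich cells, and with coronary cells limited to those without an endocardial marker UMI the adult coronary Vwf level was 64.4 in place of 88.1 CPM.

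**Figure D4:**
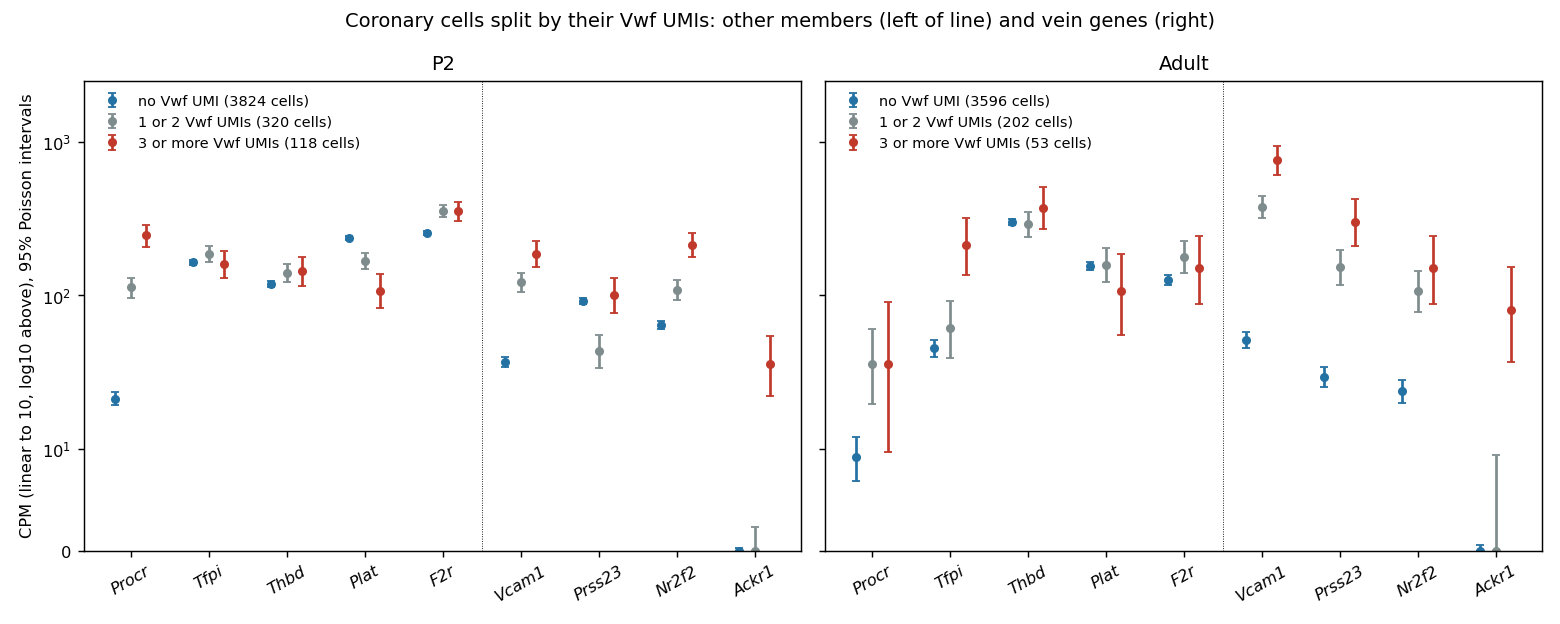
Levels (CPM, linear to 10 and log10 above) in P2 and adult coronary cells with 0, 1 or 2, and 3 or more Vwf UMIs, with 95% Poisson intervals, members of the set to the left and vein genes to the right of the line. Cells with 3 or more Vwf UMIs hold more Procr at P2 (247 against 21.3 CPM) and more Tfpi and Vcam1 in the adult (214 against 45.3 and 766 against 51.4 CPM).

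Vwf was higher in those coronary cells that also held a Procr UMI. In P2 coronary cells with a Procr UMI (408 cells) Vwf was 220 CPM, against 27.4 CPM in the 3854 cells without, a ratio of 8.02 (7.06 to 9.12). The ratio was 8.67 (4.02 to 17.2) at E15 and 4.78 (3.57 to 6.29) in the adult. Cells with a UMI were deeper, with 4792.5 and 4360 UMIs as medians at P2, and 2117.5 and 1455 in adult hearts. Plat went the other way, since P2 coronary cells with a Plat UMI held 28.8 CPM of Vwf against 73.9 CPM in cells without (0.389, 0.341 to 0.445). In the 65 adult endocardial cells, the 48 with an F2r UMI held 523 CPM of Vwf and the 17 without held 2259 CPM (0.231, 0.159 to 0.338), at median depths of 2722.5 and 1204 UMIs.

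Cxcr4 is known from tip and prearterial coronary cells but also from blood cells, and thrombomodulin responds to blood flow. Coronary cells with a Cxcr4 UMI were set against the rest. They numbered 62 at E15 and 107 at P2, then 70 in the adult, and none of the 102 coronary cells at E12 had such a UMI, which at their depth does not show that none expressed the gene. Genes of other cell types moved with the split. Macrophage genes summed to 220 CPM in cells with Cxcr4 against 1.67 CPM in the rest at E15, and to 1155 against 13.1 CPM in the adult. Erythroid genes summed to 1657 against 140 CPM at E15 and platelet genes to 157 against 24.1 CPM in adult cells. Lymphatic genes summed to 51.8 against 548 CPM at E15 and 53.3 against 987 CPM at P2, but to 149 against 104 CPM in the adult. At P2, 50 of the 107 cells with Cxcr4 were also artery cells, against 568 of the 4155 without. In the adult these were 40 of 70 and 1698 of 3781, and at E15 1 of 62 and 13 of 1030. The part of these cell types and classes in the values of the split was not tested. Thbd was 13 against 30.8 CPM at E15 (1 UMI, ratio 0.42, 0.0104 to 2.49), 85.6 against 122 CPM at P2 (0.699, 0.509 to 0.939) and 210 against 305 CPM in the adult (0.688, 0.44 to 1.03). The P2 interval alone excluded 1, and no stage reached 2-fold beyond its interval.

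Plat was 233 against 80.8 CPM at E15 (2.88-fold, 1.64 to 4.8), 310 against 225 CPM at P2 (1.38-fold, 1.17 to 1.61) and 193 against 155 CPM in the adult (1.25-fold, 0.777 to 1.90). On the log2 scale the E15 value was 1.53, and it was 1.45 with cells holding markers of other types left out and 0.98 with each cell given equal weight. Vwf was lower at P2 (0.516, 0.274 to 0.887) and in the adult (0.294, 0.0605 to 0.864, 3 UMIs), and Procr at P2 (0.268, 0.0869 to 0.629, 5 UMIs). By count, Plat was higher and Thbd, Procr and F2r lower at E15, the latter on 1, 1 and 4 UMIs, against 9.47% and 9.35% of genes. With cells holding markers of other types left out, the lower calls over the 3 stages numbered 3 in place of 5. No share of all genes is given for that setting. At P2 Procr was lower and none higher, against 6.29% and 4.66%, and in the adult Vwf was lower and none higher, against 6.23% and 9.9%.

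Other genes of haemostasis were read from lists of 12 anticoagulant, 14 fibrinolysis, 17 coagulation, 12 platelet adhesion and granule, 6 antiplatelet and 4 flow-response genes. The fibrinolysis list holds inhibitors such as Serpine2 and Serpini1 beside receptors such as Plaur. Its counts and medians therefore give no direction of fibrinolysis. In adult coronary against endocardial cells, where 12% of all tested genes were past 2-fold higher and 15% lower, the anticoagulant list had 0 genes past 2-fold higher and 4 lower of 7 tested, with a median log2 ratio of -1.28 beside 0.03 over all genes. These were Sdc4 (0.214, 0.103 to 0.514), Hs3st1 (0.315), which makes heparan sulfate that binds antithrombin, Ndst1 (0.341) and Gas6 (0.411, 0.344 to 0.496). Gas6 was counted as a member of the list, and an anticoagulant action of its protein is not claimed. The antiplatelet list had 3 lower of 4 tested (median -2.17), namely the prostacyclin synthase Ptgis at 8.62 against 119 CPM (0.0726, 0.042 to 0.131), the cyclooxygenase Ptgs1 (0.135, 0.10 to 0.186) and the ATP-degrading Entpd1 (0.366). The platelet adhesion and granule list had 6 lower and 1 higher of 10 tested (median -1.31), with Cd63, found with Vwf in endothelial storage granules, at 83.7 against 877 CPM and Igfbp7 7.20-fold (4.28 to 13.2) higher. The fibrinolysis list had 2 higher (Plgrkt 3.02-fold, S100a10 2.02-fold) and 2 lower, among them Serpine2 (0.114), of 10 tested. The flow-response list, which holds Thbd too, had Klf2 (3.78-fold, 2.51 to 5.97) and Klf4 (3.11-fold, 1.88 to 5.57) higher and none lower of 4, and neither of the 2 coagulation genes tested passed. Immediate-early transcripts summed to 6054 against 1392 CPM in the same contrast, and their part in the Klf2 and Klf4 values was not tested. Mural or fibroblast genes summed to 618 CPM in the coronary and 1761 CPM in the 65 endocardial cells, and vein genes to 158 and 1181 CPM. The part of such transcripts in the list values was not tested. The median over the members was -2.42.

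At P2, with 11.3% of all genes higher and 10.8% lower, the same contrast had 2 of 8 anticoagulant genes lower (Hs3st1 0.457, Ndst1 0.489), 2 of 10 fibrinolysis genes higher (among them Serpini1, 12.4-fold, from 102 against 2 UMIs) and 2 of 4 coagulation genes higher. The latter were further thrombin or protease receptors, F2rl3 (10.8-fold, 4.57 to 33.6) and F2rl1 (7.20-fold, from 89 against 3 UMIs), opposite in direction to F2r. Of 11 platelet adhesion and granule genes 2 were higher (Igfbp7 12.5-fold, 11.3 to 13.9, and Mmrn1 11.1-fold) and 4 lower (Rab27a 0.34, Edn1 0.355, Mmrn2 0.417 and Cd63 0.436). Mmrn1 is also among the lymphatic genes, which summed to 963 CPM in P2 coronary and 176 CPM in P2 endocardial cells. The part of lymphatic cells in its ratio was not tested. Of 6 antiplatelet genes 3 were lower (Ptgs2 0.116, Ptgs1 0.283 and Ptgis 0.40), and of 4 flow-response genes none passed. The list medians were -0.17, 0.57, 1.51, -0.54, -1.15 and -0.24 on the log2 scale in the order anticoagulant, fibrinolysis, coagulation, platelet, antiplatelet and flow response, beside -0.09 over all genes and -0.85 over the members.

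At E15, where 6.33% of all genes were higher and 13.6% lower, no anticoagulant gene of 7 passed, while Ptgs1 (0.202, 0.104 to 0.362) and Ptgis (0.313) were lower among 4 antiplatelet genes and Klf2 (0.462, 0.402 to 0.529) among 4 flow-response genes. Of 8 fibrinolysis genes Eno1 was higher (3.12-fold, 2.64 to 3.69) and Lrp1, Serpine2 and Thbs1 were lower, and of 8 platelet genes Igfbp7 was higher (5.09-fold) and Rab27a, Mmrn2 and Cd63 were lower. Klf2 was thus lower in coronary cells at E15 and higher in the adult. Immediate-early transcripts, at 745 against 1000 CPM at E15, were likewise lower at E15 and higher in the adult. Their part in the Klf2 values was not tested. At E12, where 102 coronary cells gave few UMIs and 5.74% of all genes were higher and 17.9% lower, Pros1 and Sdc4 were lower among 6 anticoagulant genes on 1 and 2 UMIs. Plaur, the receptor that holds urokinase on the cell surface, was 50.2 against 8.73 CPM (5.75-fold, 2.37 to 13.1), Eno1 was higher and Thbs1 lower among 8 fibrinolysis genes, and Cd9 was higher among 7 platelet genes.

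At the step from E12 to adult coronary cells 24.3% of all genes were higher and 14% lower. Of 7 tested genes on the anticoagulant list 4, Gas6 among them, were higher and none lower. The list median was a log2 ratio of 1.50 beside 0.46 over all genes. Pros1, the cofactor of activated protein C, went from 5.02 to 112 CPM (22.3-fold, 3.99 to 882, from 1 UMI) and Gas6 from 10.0 to 345 CPM (34.3-fold, 9.48 to 283, from 2 UMIs), with Hs3st1 4.96-fold and Anxa5 2.83-fold (2.11 to 3.87) higher. All 4 flow-response genes were higher (median 2.90), Klf4 by 12.3-fold (5.24 to 37.8), Klf2 by 4.56-fold (3.09 to 7.06) and Nos3 by 2.42-fold (1.17 to 6.05) beside Thbd. Immediate-early transcripts went from 407 to 6054 CPM over the same step, and their part in these values was not tested. Of 9 platelet genes 4 were higher (Rab3d, Igfbp7, Cd9 and Mmrn2) and none lower, of 4 antiplatelet genes Entpd1 and Nos3 were higher, and of 10 fibrinolysis genes Plgrkt was higher and Serpine2, Thbs1 and Plaur were lower. The median over the members was 0.06.

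The genes whose levels were most like those of each member were ranked by Pearson's r of log2(CPM + 10) over 18 class and stage values, among 5563 genes. The points share libraries, depth and cells, so r is a description. They include the E12 and E15 artery and large artery classes, which were not taken as arterial endothelium. Nearest to Thbd were Crip1 (0.976), Ehd1 (0.969) and Pros1 (0.968), and nearest to Procr were Prox1 (0.905), a lymphatic factor, Wnt2 (0.891) and Ctsk (0.868). Tfpi was nearest to Rab4a (0.918), Fabp5 (0.916) and Klhl4 (0.911), and Plat to Nsmce1 (0.928), Prkag1 (0.919) and Wdr1 (0.918). Vwf had Cytl1 (0.888), Gabarapl1 (0.882) and Creld1 (0.857), and F2r had Cgnl1 (0.944), Cenpt (0.935) and Gmds (0.932). Plau, with at most 10.0 CPM in any class, had Kcne3 (0.988), Clec1b (0.943) and Lipt2 (0.870). These rest on few UMIs, since the highest Plau value was 2 UMIs in E12 coronary cells and the E15 coronary value of 7.05 CPM was 9 UMIs. Among the members themselves the closest pairs were Tfpi and F2r (0.745), Thbd and Plat (0.741) and Procr and F2r (0.728), and Procr and Plat were unrelated (-0.07).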

How the data were processed

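The authors sequenced 10x Genomics v2 3′ libraries on a HiSeq 4000 and, per the labels' processing notes, used Cell Ranger 2.2 with mm10. The deposited values are raw UMI counts per gene and barcode, not normalized, from 4 libraries, 1 per stage. The E12 matrix has 737280 barcodes, of which the 5732 with at least 452 UMIs (0.1 of the 0.99 quantile of 3000 expected cells) were used, holding 88.7% of its UMIs. The other matrices hold 6062, 5884 and 4242 cells.

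Barcodes above 4000, 3000, 12000 and 5000 UMIs, above 1500, 1300, 4000 and 2000 genes, or above 10% (E12, E15) or 20% (P2, adult) mitochondrial UMIs were left out (163, 182, 163 and 155). Doublets with a Scrublet score over 0.15, computed with scanpy, were removed (312, 500, 211 and 93), at an expected rate of 0.8% per 1000 cells. This left 6986534, 5742748, 26326536 and 6718888 UMIs. Further doublets can remain.

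Counts were summed per class and stage. CPM have exact Poisson, shares exact binomial and ratios exact conditional binomial intervals at 95%. A ratio was counted from 20 UMIs in both groups together, and a group at 0 was set to 3 counts or, where this would exceed the other group, to the same level. Ratios were tested on simulated data. Lists were described by counts and medians, since no test across samples exists. The genes named are the 7 members, up to 4 genes per list and contrast past 2-fold by size of the ratio (coronary against endocardial, and E12 to adult coronary cells), and the 3 genes most like each member, from genes reaching 50 CPM in classes of at least 20 cells and 20000 UMIs. The values of 1 fibrinolysis gene are not reported here. A few further list members are named where they complete a count, and co-detected genes, Eln and Npr3 were named after their values were seen. The members and lists were chosen with earlier results of these data known. Alternatives covered filters, doublets, class limits, class overlap, other cell types, immediate-early cells, cell weighting, the CPM base and thinning to 500 UMIs.

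Gene positions are from GENCODE on GRCm38, the same assembly as mm10, and promoters from RefSeq on GRCm38.p6, with an entry for 3 of 7 members (Thbd, Plat, Plau and Vwf had none). The Procr stretch was shortened to 150 bases to leave out transcribed sequence. Python 3.11.15, numpy 2.4.6, scipy 1.17.1, pandas 2.3.3, scanpy 1.11.5 and matplotlib 3.10.9 were used.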

Additional observations from a re-analysis of the deposited data

Results flagged for a closer look

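The order of Vwf between artery cells and the other coronary cells changed from P2 to the adult. Artery cells held 38.8 and 32.0 CPM at these stages, and the other coronary cells 10.1 and 94.8 CPM. The ratio was thus 3.86-fold at P2 but 0.338-fold in the adult, and the difference between the stages was not tested. Of coronary cells with 3 or more Vwf UMIs, 91.5% at P2 and 52.8% in the adult were large artery cells. These were outside the other coronary cells. The P2 value was lost once artery cells of more than 1 class were left out. Coronary cells of both artery classes then counted among the other coronary cells, so this does not show the removal of overlap alone.

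Procr in large artery cells stood at 0.327 of the other coronary cells at E12, on 18 against 8 UMIs, and at 4.69-fold (E15), 10.1-fold (P2) and 2.89-fold (adult) later. The E12 large artery class held mural and fibroblast transcripts, and with a pan-endothelial UMI required its log2 ratio was -0.15. The difference between the stages was not tested.

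From E12 to the adult Procr moved to 0.25 in coronary and to 2.07-fold in endocardial cells. The difference was not tested, and the values rest on 9 UMIs in E12 coronary and 12 in adult endocardial cells. The E12 levels of both classes lay within the interval of the low E12 barcodes.

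Among E12 barcodes with at most 100 UMIs, the 5999 that are also cell barcodes of the E15 library held a mean of 16.9 UMIs. Those in the P2 and adult cell lists held 1.03 and 1.06, and the others 0.868. The E15-listed barcodes held 13.9% of all UMIs in the low barcodes. Barcodes in no other library's cell list held 54.9 CPM of Vwf and 189 of F2r.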

How the results depend on the processing

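In all, 437 results were recomputed under up to 14 alternatives, giving 3961 values, of which 3344 moved by less than the counting interval, 609 moved by more and 8 reversed. All settings were listed beforehand except the requirement of no marker UMI of the other class, chosen after seeing the data. No paired analysis was possible because each stage has 1 library and no test across samples exists. Main counts over all stages, higher and lower, were 3 and 7 for coronary against endocardial, 1 and 5 for artery, 7 and 3 for large artery, 9 and 3 for valve, 8 and 6 for coronary stages, 10 and 0 for endocardial stages and 1 and 5 for the Cxcr4 split. Shares of all genes past 2-fold are given for the main setting only, so the changed counts that follow are no result about the members. Lower coronary counts became 12 with thinned classes, 13 with class minima raised and 11 without marker UMIs of the other class. Artery higher counts became 2 without doublet removal, with other cell types left out or without marker UMIs of the other class, and 3 without immediate-early cells. Artery lower counts became 2 with thinned classes, raised minima, other types left out or no marker UMI of the other class, and 3 with a pan-endothelial UMI required. With cells weighted equally, large artery lower counts became 5, coronary stage lower counts 10 and Cxcr4 higher counts 0. Valve higher counts became 5 without cells of more than 1 class and valve lower counts 5 without the cell richest in the gene. Cxcr4 lower counts became 3 with other types left out and 2 without marker UMIs of the other class. Log2 ratios reversed for Thbd in E15 artery cells (0.48 with raised minima, 0.0551 with a pan-endothelial UMI), F2r there (0.21 thinned, 0.0672 with a pan-endothelial UMI), Vwf in P2 artery cells (-0.16, 1 class only), Plat in adult large artery cells (-0.0893, 1 class only), Tfpi in adult valve cells (0.0536, thinned) and Plat in adult valve cells (-0.33, no marker UMI of the other class). In the artery and large artery values with 1 class only, coronary cells of both artery classes counted among the other coronary cells. The cause of the reversals was not tested. Of 140 shares of cells with a UMI 110 moved when thinned. Depth limits E12 coronary cells (102 cells), adult endocardial cells (65) and the E12 and adult valve cells.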
